A study of Homo sapiens with 9 samples.

Results

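The transcripts of 9 complement components and regulators were followed in 786-0 cells in which HIF2α was left active, blocked with a drug or, by the sample titles, knocked out. The 9 genes, C3, C1R, C1S, CFB, CD46, CD55, CD59, SERPING1 and CLU, were taken by name from the 58735 genes of the count table, and all 9 had a row there. 786-0 is a human clear cell renal cell carcinoma line that lacks functional VHL and keeps HIF2α, but not HIF1α, permanently switched on. The 3 conditions had 3 replicates each, and all cells were kept in DMEM with 5 mM glucose and 10% FBS at 21% O2 for 48 h. They were untreated WT cells, WT cells given 10 µM PT2385 for those 48 h, and untreated HIF2α KO cells. PT2385 is a small molecule that binds HIF2α and prevents its pairing with HIF1β, so that the protein is present but inactive. The name KO is from the sample titles. The study's methods describe silencing of HIF2α by siRNA but no knockout, and for RNA-seq they name only WT and PT2385-treated cells. How the KO cells were made and whether they are 1 clone are not given in the sources used here. A difference between KO and WT cells cannot be told apart from a difference between the lines. The labels do not say whether replicates were separate cultures, so p-values measure only the spread between these libraries, which may be technical.

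Complement is a set of blood and cell-surface proteins that tags and perforates target cells. C1R and C1S start the classical pathway, factor B (CFB) drives the alternative pathway, and all routes meet at the cleavage of C3. Host cells protect themselves with membrane proteins that stop the cascade at C3 (CD46 and CD55) or at the final pore (CD59), while the C1 inhibitor SERPING1 and clusterin (CLU) act in fluid. The liver makes most circulating complement, but epithelial and tumour cells also transcribe parts of it, and interferons and other inflammatory cytokines are known inducers of several of these genes.

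Library totals ran from 11881000 to 12296841 counts in WT, from 12209143 to 14318384 with PT2385 and from 12893484 to 14730081 in KO. A gene was treated as detected above 3 reads, and 3 reads corresponded to 0.206 to 0.251 CPM. CPM is the read count scaled to the library total after TMM adjustment. EPAS1, which encodes HIF2α, had 3226, 3210 and 2788 reads in WT, 3075, 3317 and 3132 with PT2385, and 262, 360 and 307 in KO. It fell by 3.52 on the log2 scale in KO (SE 0.0963, adjusted p = 2.15e-09), whereas with PT2385 the log2 difference was -0.11 (adjusted p = 0.459). The HIF2α targets NDRG1, VEGFA and SLC2A1 were lower in both. On the log2 scale NDRG1 fell by 3.54 with PT2385 and fell by 3.74 in KO, and VEGFA fell by 2.12 in each. The log2 fold change of SLC2A1 was -2.31 with PT2385 and -1.80 in KO. Set directly against PT2385, KO had more SLC2A1, by 0.49 (adjusted p = 0.00161). Adjusted p-values here and below are from edgeR's quasi-likelihood test with Benjamini-Hochberg adjustment over all genes tested in a comparison, and a change is called at an adjusted p under 0.05.

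The 9 genes differed far more from each other than between conditions. Per kilobase of annotated exon, the scale on which levels of different genes can be compared, CD46 stood highest in WT at 13.1 ± 0.442 CPM per kilobase (SD, n = 3), ahead of CD59 at 12.2 ± 0.308. The libraries of these neighbours did not overlap in WT (12.7 to 13.5 against 11.9 to 12.4), but they did in KO (8.15 to 9.88 for CD46 against 9.51 to 11.3 for CD59). CD55 followed at 1.84 ± 0.130, then CLU at 1.10 ± 0.161 and C3 at 1.02 ± 0.233, whose WT libraries overlapped. C1R and C1S lay near 0.05 CPM per kilobase, at 0.0528 and 0.0502 on average, and also overlapped each other. CFB had 1 read in the 3 WT libraries together, and SERPING1 had none in any of the 9 libraries. The membrane regulators thus supplied 92.4 to 95.2% of all reads of the 9 genes in each library. The exon lengths are unions over all annotated transcripts, which overstates the length of the transcripts in use and so lowers these levels, by an amount that can differ between genes.

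**Figure D1:**
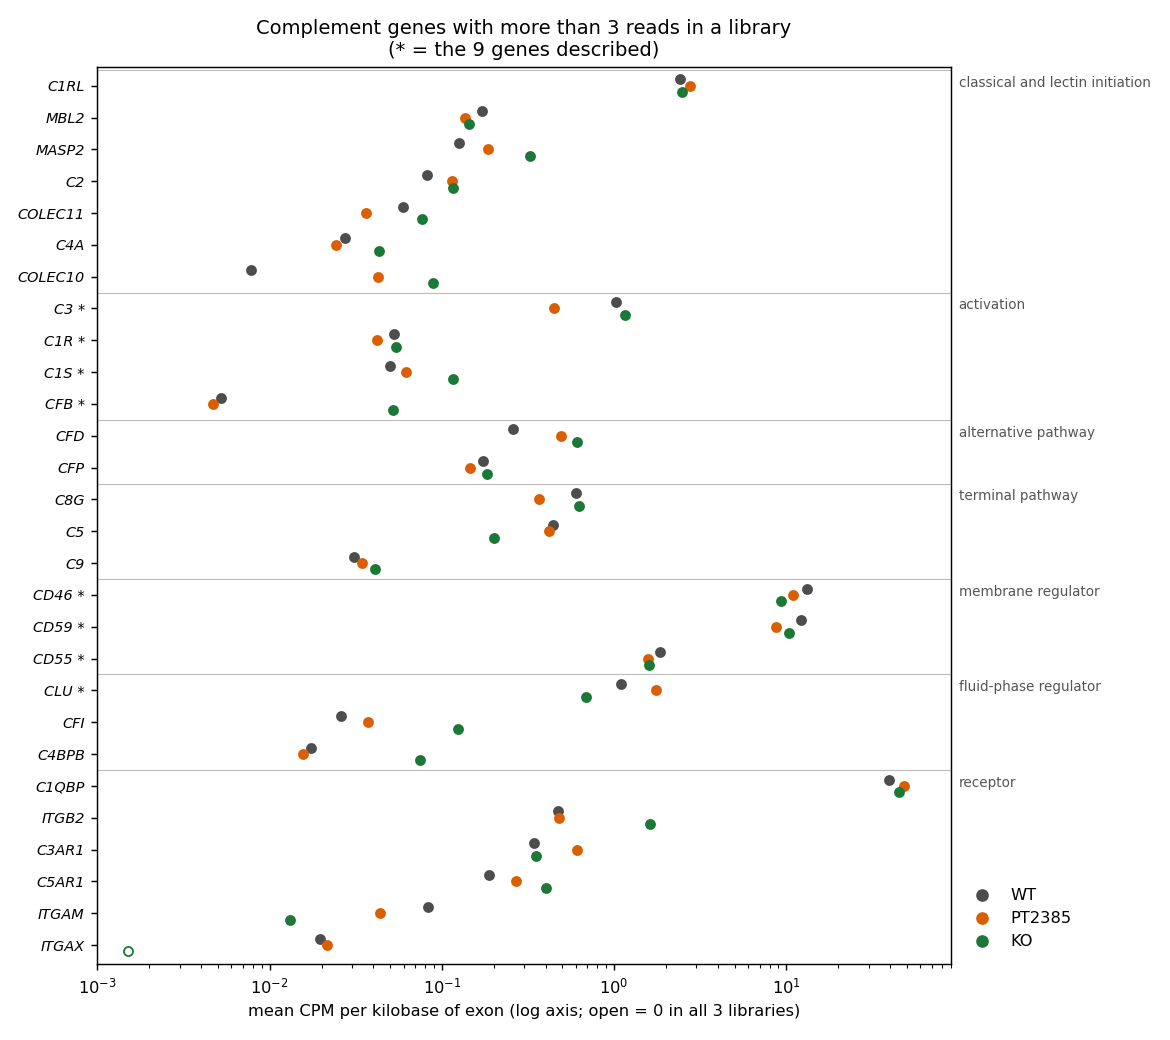
Mean level of all but 1 of the 29 complement genes with more than 3 reads in at least 1 library, in CPM per kilobase of exon on a log axis, grouped by role, for WT, PT2385 and KO cells (n = 3 each; an open symbol marks a mean of 0). CD46 and CD59 stand near 10 CPM per kilobase in all 3 conditions, while C1R, C1S and CFB lie about or below 0.1.

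In the comparison of PT2385 with WT, 5 of the 9 genes had enough reads to be tested. The study's RNA-seq methods name no vehicle control, so blocking of HIF2α cannot be told apart from other effects of the treatment. C3, CD46 and CD59 fell and CLU rose, that is 3 lower and 1 higher, and CD55 was not called. Of all 15089 genes tested, 7.70% were called, 3.08% higher and 4.62% lower. In the comparison of KO with WT, CD46, CD59 and CLU fell, C3 and CD55 were not called and none of the 5 rose, where 30.1% of 15192 genes were called, 14.7% higher and 15.4% lower. KO set directly against PT2385 had C3 higher and CLU lower, and the other 3 were not called, with 18.8% of 15402 genes called, 8.47% higher and 10.3% lower. A lack of overlap between the libraries of 2 conditions, given below for single genes, was common. It held for 26.0% of all genes tested for PT2385 against WT, 43.8% for KO against WT and 35.4% for KO against PT2385. The median log2 fold change of the 5 tested genes was -0.28 with PT2385, -0.24 in KO and 0.03 for KO against PT2385, beside 0.00 over all genes tested. PT2385 and KO were compared with the same WT libraries, so these sets of values are not independent of each other.

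**Figure D2:**
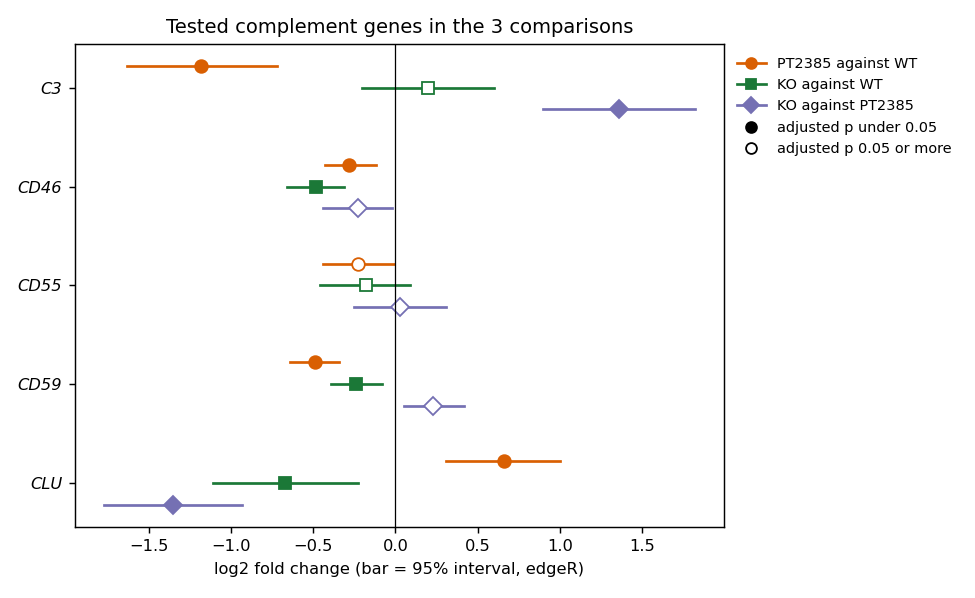
Log2 fold change of the 5 tested complement genes with its 95% interval from edgeR, for PT2385 against WT, KO against WT and KO against PT2385; filled symbols have an adjusted p under 0.05. C3 lies at -1.18 with PT2385 and at 0.20 in KO, and CLU lies at 0.66 with PT2385 and at -0.67 in KO.

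C3, the component whose cleavage all complement routes share, lies at chr19:6677704-6730562 on the reverse strand (GRCh38, GENCODE 44). Its CPM values, scaled by TMM, were 10.6, 9.88 and 14.9 in WT, 5.08, 3.88 and 6.64 with PT2385, and 11.1, 12.8 and 16.3 in KO. Every PT2385 library lay below every WT and KO library, and the WT and KO ranges overlapped. The means were 11.8 ± 2.69 CPM in WT, 5.20 ± 1.38 with PT2385 and 13.4 ± 2.63 in KO (SD, n = 3), so that PT2385 cells held 44.2% of the WT level. C3 fell by 1.18 on the log2 scale with PT2385 (SE 0.208, adjusted p = 0.00407). In KO the log2 difference from WT was 0.20 (95% interval -0.20 to 0.60, adjusted p = 0.447), an interval that does not reach the value with PT2385. Set directly against PT2385, KO was higher by 1.36 (SE 0.208, adjusted p = 0.00106), 2.57-fold. Both calls were kept under all 14 alternatives tried for each comparison, and over the libraries left out in turn the log2 change with PT2385 ran from -1.40 to -0.98. Counts behind these values were 52 to 237 reads per library. In bulk RNA, fewer cells expressing a gene and less RNA per cell cannot be told apart.

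C1R and C1S encode the paired proteases of the C1 complex, C1R cutting C1S and C1S cutting C4 and C2. C1R had 7, 1 and 3 reads in WT, 2, 2 and 6 with PT2385, and 6, 4 and 3 in KO, at chr12:7080214-7092540. These counts overlapped in all pairs of conditions and stayed close to the 3-read limit, and C1R also shares 672 of its exon bases with C1RL, which had 1495 reads over the 9 libraries. C1S, at chr12:6988259-7071032, had 6, 5 and 4 reads in WT, 4, 8 and 9 with PT2385, and 6, 13 and 22 in KO. Its mean was 0.416 ± 0.0843 CPM in WT and 0.958 CPM in KO, but 1 KO library had the same 6 reads as the highest WT library (exact permutation test, two-sided, p = 0.200; 3 against 3 libraries cannot give less than 0.1). C1S passed the read filter for KO against WT only when KO replicate 1 or a WT library was left out. C1S then passed through the KO libraries, where it was higher, so the filter itself favoured a higher call. Without KO replicate 1, the KO library with the fewest C1S reads, its log2 fold change was 1.53 (adjusted p = 0.0350), and without each WT replicate it was 1.08 to 1.37 (adjusted p from 0.140 to 0.223). With no filter it was 1.21 (adjusted p = 0.0715).

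CFB encodes the protease of the alternative pathway C3 convertase, at chr6:31945650-31952086. It had 0, 0 and 1 reads in WT, 0, 1 and 0 with PT2385, and 0, 7 and 5 in KO. Reads above the 3-read limit were therefore seen in KO replicates 2 and 3 and in no other library, while KO replicate 1 had none (exact permutation test of KO against WT, two-sided, p = 0.400). CFB did not pass the read filter, and with no filter its adjusted p for KO against WT was 0.0853. A read-through transcript from C2 covers 42.3% of the exon bases of CFB, and it had no reads. How reads in bases shared by 2 genes were counted is not given in the sources used here. The reads of CFB may therefore be undercounted. The bases before the RefSeq start of CFB that match cytokine-response motifs are short and are shown for comparison with those of the membrane regulators. A match to the interferon-stimulated element GAAANNGAA was found at bases -139 to -131 from the start (TTCTGTTTC as read on the gene's strand), an NF-kB match at -112 to -103 (GGGGCCCTCC) and a match to the gamma-activated site TTCNNNGAA at -92 to -84 (TTCCGGGAA). Of 35116 RefSeq promoter windows of 250 bases, 6.88%, 9.96% and 6.57% held these motifs. A match is a match of letters and shows no binding.

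Among the 9 genes, the membrane regulators had the most reads. CD46, the membrane cofactor for the cleavage of C3b and C4b by factor I, lies at chr1:207752037-207795513, and CD59, which blocks assembly of the final pore, at chr11:33703010-33736479 on the reverse strand. Because both fell in both comparisons with WT, the 250 bases before their most upstream listed RefSeq start (GRCh38.p14) are shown, chr1:207751788-207752037 on the forward strand for CD46 and chr11:33736480-33736729 on the reverse strand for CD59, with capitals marking a motif match.
CD46: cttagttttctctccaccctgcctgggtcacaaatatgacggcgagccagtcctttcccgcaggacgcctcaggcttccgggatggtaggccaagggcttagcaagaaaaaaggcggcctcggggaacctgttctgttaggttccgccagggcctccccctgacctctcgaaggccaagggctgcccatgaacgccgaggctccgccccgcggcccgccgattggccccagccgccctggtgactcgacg
CD59: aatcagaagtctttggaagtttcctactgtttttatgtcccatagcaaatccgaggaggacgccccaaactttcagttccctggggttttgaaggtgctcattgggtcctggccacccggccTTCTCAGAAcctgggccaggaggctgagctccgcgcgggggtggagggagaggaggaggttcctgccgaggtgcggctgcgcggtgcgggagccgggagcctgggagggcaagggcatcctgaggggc
Each window was searched on both strands for the hypoxia response core (ACGTG or GCGTG), GAAANNGAA, the C/EBP motif TTNNGNAA, TTCNNNGAA and the NF-kB motif. The CD46 window held none of the 5. The CD59 window held 1 gamma-activated site, TTCTCAGAA at -128 to -120, and no hypoxia response core. Of all 35116 windows, 43.2% held the core and 33.2% the C/EBP motif. CD59 has 4 listed starts, and the window before a downstream one, chr11:33722950-33723199, held 1 core and 2 C/EBP matches. For C1R, the window chr12:7092446-7092695 held 2 C/EBP matches. Another, chr12:7091894-7092143, held 1 C/EBP match and 1 gamma-activated site (TTCCTGGAA). CD46 has 2 listed starts and CD55 1, and none of their windows held any of the 5 motifs. The absence of these letters from a window tells nothing about the factors. C3, C1S, SERPING1 and CLU had no entry in the promoter table.

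CD46 measured 209.9, 204.4 and 196.3 CPM in WT, 181.1, 173.5 and 151.3 with PT2385, and 152.7, 153.3 and 126.4 in KO. All WT libraries lay above all others, and the PT2385 and KO ranges overlapped. CD46 fell by 0.48 on the log2 scale in KO (SE 0.0793, adjusted p = 0.000855), to 71.5% of WT, and this call was kept under all 14 alternatives. With PT2385 it fell by 0.28 (SE 0.0728, adjusted p = 0.0397), to 82.6% of WT. That call depended on single libraries and on the model. The adjusted p was 0.110 without PT2385 replicate 2, 0.0564 without PT2385 replicate 3, 0.153, 0.153 and 0.0691 without WT replicates 1, 2 and 3, 0.0617 with scaling by library size alone and 0.0851 in a model of all 9 libraries, while the log2 change stayed between -0.33 and -0.20. KO against PT2385 gave a log2 difference of -0.23 (95% interval -0.44 to -0.02, adjusted p = 0.132). An antisense transcript, MIR29B2CHG, shares 5.14% of the exon bases of CD46 and had 2662 reads over the 9 libraries, and how strand was counted is not given in the sources used here.

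CD59 measured 125.3, 130.4 and 131.3 CPM in WT, 84.8, 95 and 96.6 with PT2385, and 106.3, 100.4 and 118.8 in KO. The 3 conditions did not overlap, with PT2385 lowest and KO between. CD59 fell by 0.49 on the log2 scale with PT2385 (SE 0.0675, adjusted p = 0.000656), to 71.3% of WT, and the call was kept under all 14 alternatives. In KO it fell by 0.24 (SE 0.0704, adjusted p = 0.0268), to 85.0% of WT. The KO call was lost without KO replicate 1 (adjusted p = 0.0906), KO replicate 2 (0.0924) or any of WT replicates 1, 2 and 3 (0.0544, 0.0844 and 0.0818). KO and PT2385 differed by 0.23 (95% interval 0.05 to 0.42), which did not pass after adjustment (adjusted p = 0.0822). It passed when all 9 libraries were fitted together (adjusted p = 0.0395).

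CD55, or decay-accelerating factor, which takes C3 convertases apart, lies on the same chromosome arm as CD46, at chr1:207321519-207386804. It measured 17.3, 19.9 and 19.2 CPM in WT, 15.9, 16.6 and 15.9 with PT2385, and 15.9, 14.2 and 19.2 in KO. The PT2385 libraries lay below all WT libraries, whereas KO overlapped both. The log2 difference from WT was -0.23 with PT2385 (95% interval -0.44 to -0.01, adjusted p = 0.212) and -0.18 in KO (-0.46 to 0.09, adjusted p = 0.313). KO against PT2385 gave 0.03 (-0.25 to 0.31, adjusted p = 0.917). No comparison was called, but the interval with PT2385 includes a change as large as that of CD46. CD55 had 197 to 279 reads per library.

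**Figure D3:**
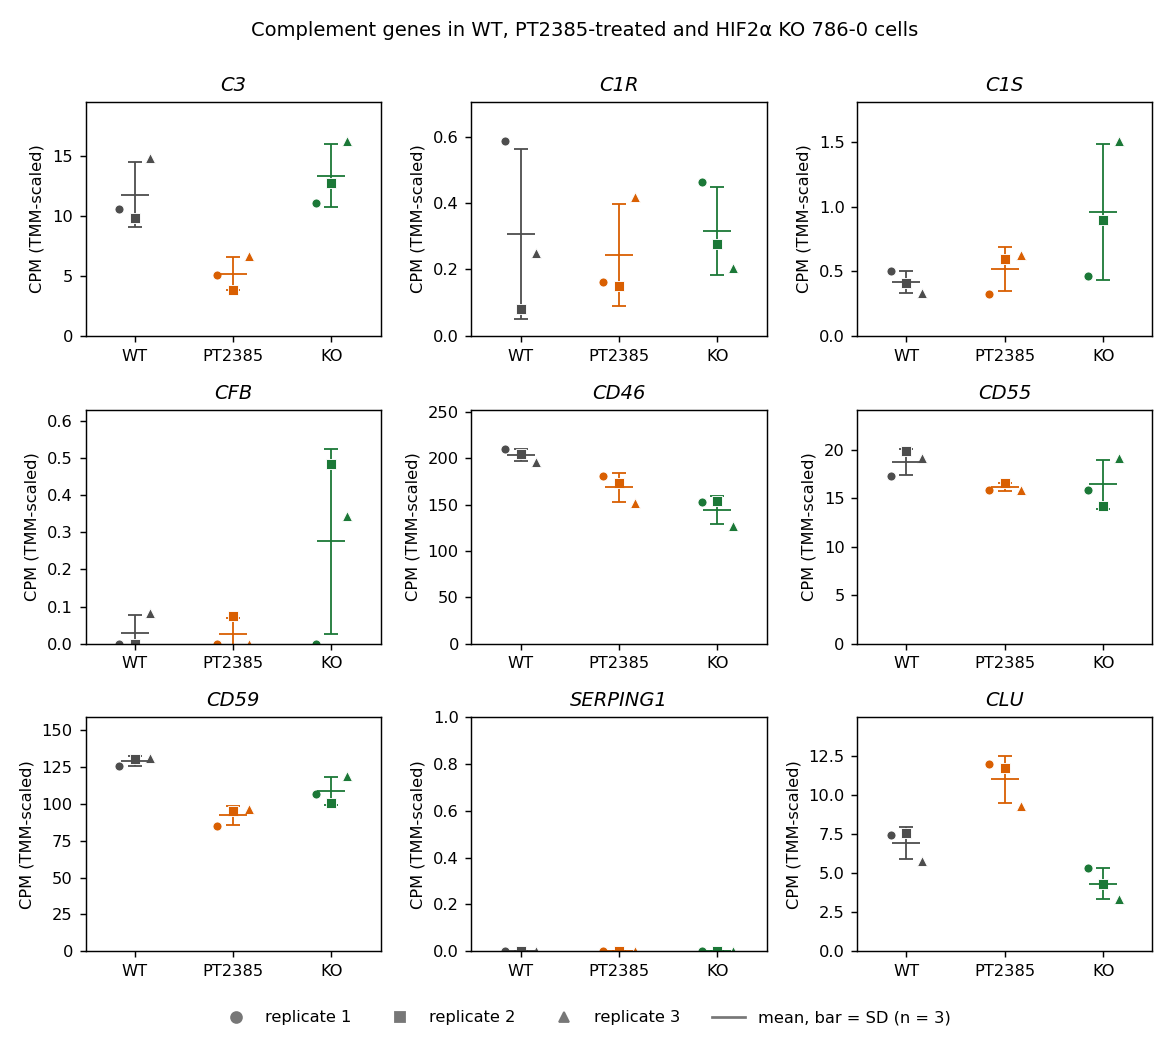
TMM-scaled CPM of each of the 9 complement genes in the 9 libraries, with the mean and SD of each condition (n = 3) and the replicate number as the symbol shape; every vertical axis starts at 0. PT2385 libraries lie lowest for C3 and CD59 and highest for CLU, KO libraries lie lowest for CLU, and SERPING1 is at 0 throughout.

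The fluid-phase regulators were represented by CLU alone. SERPING1, the inhibitor of C1R and C1S (chr11:57597387-57619171), had 0 reads in each of the 9 libraries, which allows a level of up to 0.206 to 0.251 CPM depending on the library, counting error only. CLU encodes clusterin, a secreted chaperone that also binds the terminal complement complex. CLU had 7.46, 7.57 and 5.77 CPM in WT, 12.0, 11.7 and 9.29 with PT2385, and 5.32, 4.30 and 3.37 in KO. The 3 conditions did not overlap, and WT lay between the others. CLU rose with PT2385 to 157.6% of WT (log2 fold change 0.66, SE 0.157, adjusted p = 0.0249) and fell in KO to 62.8% (log2 fold change -0.67, SE 0.201, adjusted p = 0.0265). KO against PT2385 gave -1.35 (SE 0.191, adjusted p = 0.000655), a 2.54-fold lower level that was called under all 14 alternatives.

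The comparisons of CLU with WT were less stable than the direct one, at 49 to 156 reads per library. The rise with PT2385 was no longer called without PT2385 replicate 1 (adjusted p = 0.0516), PT2385 replicate 2 (0.114) or WT replicates 1, 2 or 3 (0.0578, 0.0614 and 0.0948). The fall in KO was no longer called without KO replicate 2 (0.0544), KO replicate 3 (0.0606), WT replicate 1 (0.0885) or WT replicate 2 (0.0990). The log2 change kept its direction under every alternative, from 0.54 to 0.77 with PT2385 and from -0.84 to -0.52 in KO.

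C3 was higher and CLU lower in KO than with PT2385, and their ratio shows both at once. The ratio of their levels per kilobase was 0.775, 0.708 and 1.40 in WT, 0.230, 0.181 and 0.388 with PT2385, and 1.13, 1.62 and 2.63 in KO. All PT2385 ratios lay below all WT ratios, and KO lay above PT2385 but overlapped WT. CD59 relative to CD46, a pair of regulators that act at different steps, was 0.877, 0.937 and 0.983 in WT, 0.688, 0.804 and 0.938 with PT2385, and 1.02, 0.962 and 1.38 in KO. KO ratios lay above PT2385 ratios without overlap, and the other pairs of conditions overlapped. These ratios were taken after the single-gene values were known and are given as a description.

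**Figure D4:**
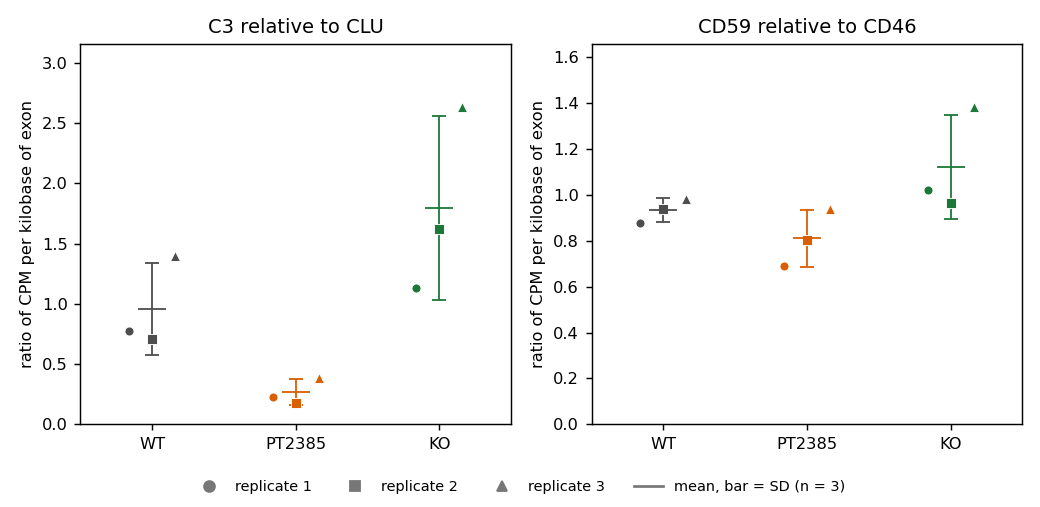
Ratio of C3 to CLU and of CD59 to CD46, each in CPM per kilobase of exon, for every library with the mean and SD of each condition (n = 3). The C3 to CLU ratio is at most 0.388 with PT2385 and at least 1.13 in KO, and replicate 3 (triangles) is highest in each condition in both panels.

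Libraries with the same replicate number moved together in these genes. Replicate 3 was the highest of its condition for C3 and CD59, and the lowest for CD46 and CLU, in all 3 conditions, that is for 4 of the 5 tested genes. Over 14737 genes, replicate 3 stood at one end in all 3 conditions for 23.7%, compared with 15% for replicate 1 and 6.46% for replicate 2. The labels give no date or batch, and what the numbers share was not tested. Within each number C3, CD46 and CD59 were lower and CLU was higher with PT2385 than in WT. Likewise, CD46, CD59 and CLU were lower in KO than in WT within each number. Both follow from the lack of overlap between these conditions and add nothing to it. For PT2385 and WT the numbers met the rule for pairing, and fitting the replicate number as a block left the 4 calls in place while the calls over all genes went from 1162 to 2305.

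Of 55 complement genes considered, the 9 included, 29 had more than 3 reads in at least 1 library and 20 had no reads in any. The parts of the C1q recognition molecule, C1QA, C1QB and C1QC, were among those at 0. Terminal genes above 3 reads were C5, C8G and C9, 3 of 7, and 4 of 12 fluid-phase regulators were above 3 reads, CLU among them. Of the other 46 genes, 9 could be tested for PT2385 against WT and 1 was called. It was C1QBP, a mainly mitochondrial protein first found through its binding to C1q, with 1034, 1214 and 1095 reads in WT and 1385, 1496 and 1618 with PT2385 (log2 fold change 0.27, SE 0.0675, adjusted p = 0.0302). The call was lost without PT2385 replicate 2 (adjusted p = 0.121) or WT replicates 1 or 3 (0.144 and 0.0983). The C3a receptor gene C3AR1 had 17, 14 and 12 reads in WT and 31, 23 and 31 with PT2385, a log2 difference of 0.82 that was not called (95% interval 0.21 to 1.44, adjusted p = 0.108).

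In KO, 10 of the other 46 complement genes were tested and 4 were called, 3 higher and 1 lower, beside 30.1% of all genes. MASP2 and CFD, among the 3 higher, passed the read filter through the KO libraries. C5, the source of the C5a peptide and the first component of the pore, had 121, 77 and 72 reads in WT, 107, 86 and 90 with PT2385, and 49, 45 and 48 in KO. Every KO library lay below every other, and C5 fell by 1.13 on the log2 scale against WT (SE 0.227, adjusted p = 0.00317) and by 1.06 against PT2385 (adjusted p = 0.00263). ITGB2, the beta chain shared by complement receptors 3 and 4, had 27, 61 and 36 reads in WT, 23, 55 and 64 with PT2385, and 131, 105 and 262 in KO. It rose in KO by 1.79 against WT (SE 0.351, adjusted p = 0.00273) and by 1.75 against PT2385 (adjusted p = 0.00616). The calls of C5 and ITGB2 were kept under all 14 alternatives. The alpha partners of ITGB2 in those receptors, ITGAM and ITGAX, were too low to be tested. C5 and ITGB2 were the only ones of the 11 tested among the other 46 that were called for KO against PT2385.

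The remaining KO calls were MASP2, a lectin pathway protease (log2 fold change 1.40, adjusted p = 0.0333), and CFD, factor D, the protease that cuts factor B (1.22, adjusted p = 0.0381). Both rested on few reads, 4 to 35 per library for MASP2 and 3 to 16 for CFD, and neither was called by DESeq2 (adjusted p = 0.0512 and 0.148). In this comparison both passed the read filter through the KO libraries, where they were higher, so the filter itself favoured a higher call. WT reads were 9, 4 and 10 for MASP2 and 6, 8 and 3 for CFD. MASP2 was also lost without KO replicate 2 or 3 or any WT library (adjusted p from 0.0562 to 0.135). CFD was lost without KO replicate 1 (0.110), KO replicate 2 (0.0788), WT replicate 1 (0.0907) or WT replicate 3 (0.144). MASP2 overlaps TARDBP and CFD overlaps MED16, each on the opposite strand and with far more reads. C1RL and CFP were tested and not called in any comparison. Their log2 differences from WT were 0.18 and -0.24 with PT2385 and 0.05 and 0.09 in KO.

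Genes induced by interferons or in the acute phase were examined beside the complement genes because the same cytokines are known to induce C3, CFB and C1S. Of 24 such genes tested, 2 rose and 1 fell with PT2385, against 7.70% of all genes called. IFIT1 rose by 0.82 (adjusted p = 0.0183) and CXCL8 fell by 0.64 on the log2 scale (adjusted p = 0.00478). The IFIT1 call was lost without WT replicate 2 (adjusted p = 0.0853) or WT replicate 3 (0.0714) and in a model of all 9 libraries (0.0531), where CXCL8 was also lost (0.462). In KO 11 rose and none fell, against 30.1% of all genes, among them ISG15 (0.86, adjusted p = 8.80e-05), IFIT1 (1.58, adjusted p = 0.000299) and SOCS3 (0.69, adjusted p = 0.000350). KO against PT2385 had 9 higher and 1 lower of the 24, against 18.8% of all genes. STAT3 (0.34, adjusted p = 0.00460), STAT2 (0.75, adjusted p = 0.00311) and ISG15 (0.58, adjusted p = 0.00482) were among the higher ones. The median log2 fold change of the 24 was 0.04 with PT2385 and 0.34 in KO. C3 was lower with PT2385, where 2 of these genes rose and 1 fell, and was not called in KO, where 11 rose. The list pools interferon, NF-kB and acute-phase genes, so these counts do not describe each kind. A link between the cytokine-induced genes and the complement genes was not tested.

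**Figure D5:**
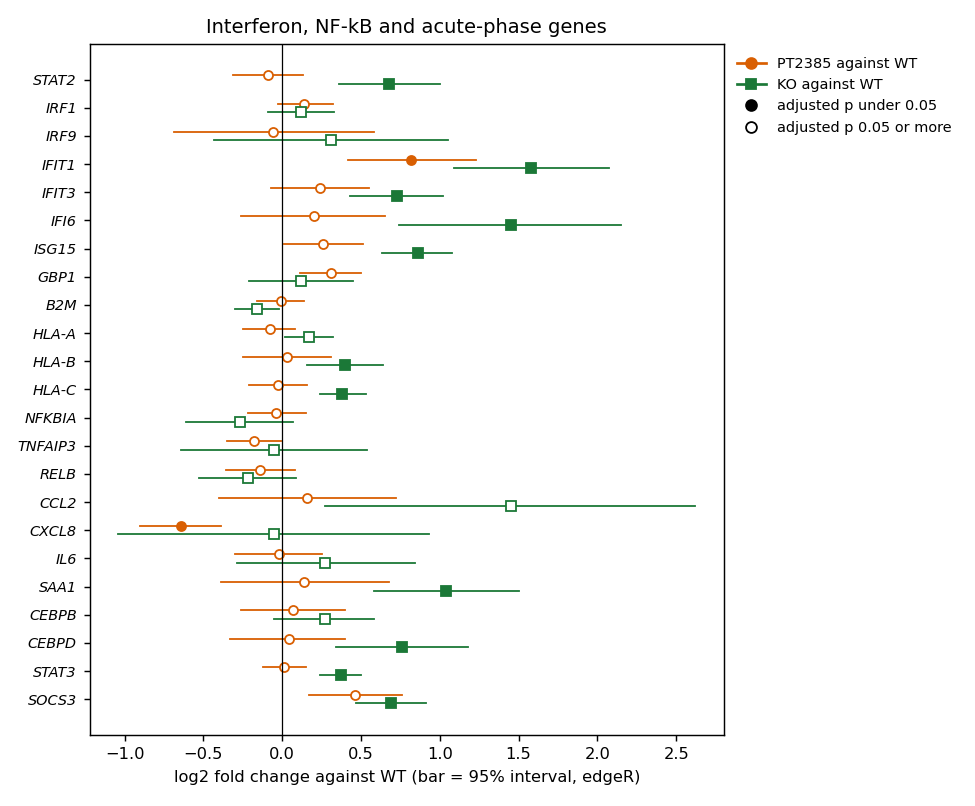
Log2 fold change against WT of all but 1 of the 24 tested interferon, NF-kB and acute-phase genes, with 95% intervals from edgeR, for PT2385 and KO; filled symbols have an adjusted p under 0.05. With PT2385, IFIT1 and CXCL8 are filled, and in KO 11 genes are filled, all to the right of 0.

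Markers of the cell line and of cells that make or carry complement were checked. The 8 renal and clear cell carcinoma markers were all detected, PAX8 with 6975 to 9881 reads, and their summed level was 5870.9 to 6418.0 CPM over the 9 libraries, most of it VIM. Single markers moved within this sum. PAX2 fell to 40.5% of WT in KO (adjusted p = 2.84e-05), CDH6 rose 2.61-fold with PT2385 and 2.05-fold in KO (adjusted p = 3.31e-07 and 0.00232), and KRT18 rose 1.81-fold in KO (adjusted p = 4.66e-05), all of them called under every alternative. KRT8 also rose in KO, 1.46-fold (adjusted p = 0.000101). With PT2385, PAX2 was lower and KRT8 and KRT18 were higher (adjusted p = 0.0325, 0.0423 and 0.0158), calls that were each lost without WT replicate 2 (0.0583, 0.132 and 0.0802) and, for each, without at least 1 other library. All 5 hepatocyte markers and all 3 endothelial markers were at or under 3 reads in every library. Of 7 leukocyte markers 6 were at or under 3 reads, with PTPRC at 0 in WT and KO, and CD14 reached 18 reads. The summed leukocyte level was 0.0823 to 0.752 CPM in WT, 0.149 to 0.768 with PT2385 and 0.693 to 1.37 in KO, the condition in which ITGB2, also a leukocyte gene, rose. Of 4 fibroblast markers, DCN was at 0, and the sum was 8.78 to 10.1 CPM in WT, 10.5 to 13.3 with PT2385 and 5.22 to 7.0 in KO. The other 3 did not move together. In KO, COL1A1 and PDGFRB fell by 1.10 and 4.50 on the log2 scale (adjusted p = 0.00346 and 4.56e-05), while LUM rose by 1.16 (adjusted p = 0.0144), a call lost without KO replicate 2 (0.0553), WT replicate 1 (0.0569) or WT replicate 2 (0.0661). PDGFRB had 27, 31 and 28 reads in WT and 2, 2 and 0 in KO. It passed the read filter through the WT libraries, and the size of its fall is uncertain. The part of these marker changes in the results was not tested.

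The genes whose pattern over the 9 libraries was most like that of each called complement gene were found by Pearson's r of log2 CPM among 9528 genes (9529 for CLU). They were KIAA1671 (r = 0.974) and CAV1 (0.966) for C3, and CCDC117 (0.986) and P4HA1 (0.985) for CD46. For CD59 they were the unnamed genes ENSG00000275993 (0.981) and ENSG00000227200 (0.976), and for CLU they were ST3GAL2 (0.967) and MATCAP1 (0.966). CAV1 averaged 513.0 CPM in WT, 379.6 with PT2385 and 525.2 in KO, so it was lowest with PT2385, as C3 was. ST3GAL2 averaged 184.0, 219.2 and 154.5 CPM in the same order, so it was highest with PT2385 and lowest in KO, as CLU was. These are the highest of all the values computed, from libraries that share conditions and replicate numbers, and they are given as a description.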

How the data were processed

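RNA from 9 libraries of 786-0 cells was sequenced. Per the labels and the study's methods, the authors checked reads with FastQC, trimmed them with cutadapt, aligned them to GRCh38 (hg38) with STAR and counted reads per gene with featureCounts, and deposited the raw counts per gene. Versions, annotation release and strand setting are not given in the sources used here, so reads of overlapping antisense genes may be included. Every column was mapped to a sample by its title (0 columns unmapped). Ensembl IDs were matched to GENCODE 44, and 58207 of 58735 had a symbol. SOD2, of 28 cytokine-induced genes, had no match, leaving 27.

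Counts were analysed in R 4.3.3. For each comparison the 6 libraries concerned were filtered (filterByExpr, minimum count 10), scaled by TMM and tested two-sided with edgeR 4.0.16 (glmQLFTest). Of the 9 genes, 4 did not pass the filter. The study used DESeq2, here an alternative (1.42.0). It gave 1072, 3972 and 2612 calls for PT2385 against WT, KO against WT and KO against PT2385, beside 1162, 4566 and 2897. The code was tested on simulated data. Other alternatives were RLE, upper-quartile and library-size scaling, 2 other filters, the replicate block, a model of all 9 libraries, and leaving out each library. For 3 against 3 libraries the smallest exact permutation p is 0.1.

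Same-numbered libraries were compared by the correlation of their deviations from group means over 11487 genes. For PT2385 and WT it was 0.404, 0.104 and 0.387, all over the limit of 0.1 set for pairing. With KO 1 pair fell below (0.0327 against WT, 0.0624 against PT2385). No libraries were duplicates (chi-square over degrees of freedom 3.00 to 17.0). Named genes were the 9, the other complement genes with a mean of at least 10 counts in a condition or a call, the 3 cytokine-induced genes with the smallest p per comparison, EPAS1 and HIF2α targets, and the 2 most similar genes per called gene with a mean of at least 10 CPM. The genes and lists were chosen with earlier results of these data known. Promoter sequences are from RefSeq (GRCh38.p14, 250 bases before the start). All printed letters matched hg38. They were found for 5 of the 9 genes. A few genes of the 2 wider lists enter the counts and medians but are not reported by name here.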

Additional observations from a re-analysis of the deposited data

Results flagged for a closer look

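Some genes differed between KO and PT2385-treated cells in the direct comparison. An effect of how HIF2α was lost or blocked and a difference between the lines cannot be told apart here. C3 was higher in KO than with PT2385 by 1.36 on the log2 scale (SE 0.208, adjusted p = 0.00106, edgeR), and every KO library lay above every PT2385 library. The CLU difference was -1.35 (SE 0.191, adjusted p = 0.000655), again with no overlap in the 3 against 3 libraries, and its changes from WT had opposite signs. Outside the 9 genes, C5 differed by -1.06 (SE 0.190, adjusted p = 0.00263) and ITGB2 by 1.75 (SE 0.360, adjusted p = 0.00616). In this comparison 18.8% of all genes were called and 35.4% had no overlap. Conditions of 3 libraries were not examined for single outlying samples.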

How the results depend on the processing

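Over 210 values of the tested complement genes under the alternatives, 185 kept their direction and their side of the threshold, 21 were no longer called, 3 became called and 1 changed sign. The sign change was CD55 for KO against PT2385, -0.10 without KO replicate 3 and 0.12 at the other end with 1 library left out, and it was called in none of these fits. For PT2385 against WT, genes called went from 1162 to 2305 with the replicate block, and from 574 to 1451 with 1 library left out. The complement genes called there were 4, and 2 to 3 with 1 library left out, 2 being the count without PT2385 replicate 2 or without any 1 of the 3 WT replicates. The same 4 fits had the fewest genes called of the 6 that left out a library. For KO against WT, 3 complement genes were called, and 1 to 3 with 1 library left out (3 without KO replicate 1, where C1S was called and CD59 was not, and 1 without KO replicate 2, WT replicate 1 or WT replicate 2). Without KO replicate 1, C1S passed the read filter through the KO libraries, where it was higher. For KO against PT2385, 2897 genes were called, and 1836 to 3190 with 1 library left out. With the replicate block 4 complement genes were called there in place of 2, CD46 (adjusted p = 0.0142) and CD59 (0.0298) being added, but the numbers did not meet the rule for pairing in KO, and the cause was not tested. The replicate block changed no complement call against WT among the 9 genes. It added C1QBP in KO (adjusted p = 0.0186) and took calls among the cytokine-induced genes from 3 to 5 with PT2385 and from 11 to 16 in KO. C1R, C1S, CFB and SERPING1 had too few reads to pass the filter in any of the 3 comparisons with all libraries, and SERPING1 had none. Scaling by library size alone moved the share of higher calls with PT2385 from 40.0% to 47.8%.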
